A study of Mus musculus with 13 samples.

Results

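The Kcnq1ot1-Cdkn1c cluster is a group of imprinted genes on distal chromosome 7 of the mouse, and 8 of its genes were followed here among the 35976 gene symbols counted: Kcnq1ot1, Kcnq1, Cdkn1c, Phlda2, Slc22a18, Nap1l4, Tssc4 and Cd81. They were chosen by name, for their place in the domain, with earlier results of these data known. RNA was sequenced from primordial germ cells, which give rise to sperm, of male embryos at stage E14.5, with 3 libraries for each of 4 Tet1 genotypes. KO is labelled as a Tet1 knockout. The HxD allele is known to encode a catalytically dead TET1, the V allele a TET1 that halts at 5-hydroxymethylcytosine, and WT is the wild type. Cells of all 4 genotypes carried the Oct4-GFP reporter by which they were sorted, and each library began with RNA of 5000 cells. The sources used here do not give zygosity, strain or the part of Tet1 removed in KO. They also do not say whether replicates came from separate embryos, so a p-value measures the spread among libraries, which may be technical.

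In imprinted domains the parental copies of a gene are used unequally, under an imprinting control region whose DNA is methylated on 1 of the parental chromosomes. In this domain the control region lies in an intron of Kcnq1 and holds the promoter of Kcnq1ot1, a long RNA read in the opposite direction to Kcnq1. The region is methylated in the oocyte, so Kcnq1ot1 is made from the paternal chromosome in somatic tissues, where it silences neighbours such as Cdkn1c, Phlda2 and Slc22a18 in cis. Primordial germ cells erase such methylation, and TET1, which oxidises 5-methylcytosine, is an enzyme of that process. The question for these libraries was whether transcript levels in the cluster differ between the Tet1 genotypes. The counts do not separate the parental alleles.

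The promoter of Kcnq1ot1 is shown because it lies in the control region, and that of Phlda2 because Phlda2 was the gene whose KO libraries stood above every other library. Both come from RefSeq (GRCm38.p6) and run from 250 bases before to 50 bases after the start site, 5′ to 3′ on the minus strand. Kcnq1ot1 is at chr7:143296498-143296797 and Phlda2 at chr7:143502475-143502774, with a start site that lies inside the gene span given by GENCODE. Capitals mark the letters CCAAT, searched on both strands (as CCAAT or ATTGG).
Kcnq1ot1: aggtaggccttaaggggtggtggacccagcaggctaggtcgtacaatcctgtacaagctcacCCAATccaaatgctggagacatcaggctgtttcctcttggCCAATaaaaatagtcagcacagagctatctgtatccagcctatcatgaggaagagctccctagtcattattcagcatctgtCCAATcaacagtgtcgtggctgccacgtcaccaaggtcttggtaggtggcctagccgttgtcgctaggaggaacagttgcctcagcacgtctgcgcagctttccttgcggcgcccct
Phlda2: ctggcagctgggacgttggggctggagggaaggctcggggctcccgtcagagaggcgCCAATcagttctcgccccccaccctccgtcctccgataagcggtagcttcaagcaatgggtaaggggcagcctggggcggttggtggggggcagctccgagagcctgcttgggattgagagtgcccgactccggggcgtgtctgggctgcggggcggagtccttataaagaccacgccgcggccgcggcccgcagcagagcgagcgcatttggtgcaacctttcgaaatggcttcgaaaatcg

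The Kcnq1ot1 window held 3 copies of CCAAT, a number that 3.37% of the 32851 promoter windows in the RefSeq table reach, against 37.4% with at least 1 copy. Its 300 bases held 9 CpG sites, the dinucleotide that DNA methylation uses, where the median window held 7. The Phlda2 window held 26 CpG sites and 1 copy of CCAAT, and 16.9% of windows had as many CpG sites. Of the other windows in the table, those of Tssc4 and Cd81 held 23 CpG sites each and that of Slc22a18 held 2. These are descriptions of the letters in 5 windows, and no binding or methylation was measured in these libraries.

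Library totals ran from 13584484 to 29641963 counts, so 3 counts, the most that a count of 0 allows, correspond to 0.103 to 0.220 CPM in a library, where CPM is the count scaled to library size. Such floors cover counting error only. Tet1 was lower in KO, at 213 ± 11.8 CPM (SD, n = 3), against 608 ± 27.0 CPM in WT. Germ cell genes were abundant in all libraries, among them Ddx4 (465 to 981 CPM) and Pou5f1 (299 to 591 CPM). The summed level of 12 germ cell markers was 3873 to 4201 CPM in KO, 3664 to 4636 in HxD, 4212 to 4470 in V and 5074 to 5252 in WT, so it was lower in every mutant library. Most of that gap was Dazl, an RNA-binding protein gene of germ cells with 849 ± 193 CPM in KO, 793 ± 192 in HxD, 953 ± 255 in V and 1754 ± 150.5 in WT (edgeR adjusted p = 0.00943 in KO, 0.00935 in HxD and 0.19 in V). Mael, a gene of transposon silencing in germ cells, was the other marker that edgeR called, with 22.1 ± 11.8 CPM in KO, 16.3 ± 6.40 in HxD, 39.6 ± 11.7 in V and 121 ± 45.2 in WT (edgeR adjusted p = 0.0018, 0.000567 and 0.293 for KO, HxD and V). At an unadjusted p under 0.05, 2 of the 12 markers were higher and 3 lower in KO. In HxD the numbers were 2 and 3 and in V 3 and 3, against 8.3%, 8.24% and 6.05% of all tested genes. The markers' median log2 fold changes were -0.06, -0.01 and -0.07 in KO, HxD and V. DESeq2 called Ddx4, Dazl and Mael lower in KO (1.63% of all), and Dazl and Mael lower in HxD (1.35%). It called Pou5f1 and Tfap2c higher in HxD, and Mael lower and Pou5f1 higher in V (0.571%). Of 10 Sertoli genes, the summed level was 19.01 to 63.6 CPM in KO, 9.30 to 43.7 in HxD, 12.8 to 351 in V and 11.96 to 99.6 in WT, with the highest value in V 2. Of 10 interstitial genes it was 5.69 to 30.8, 17.6 to 29.4, 2.85 to 34.6 and 6.88 to 14.8 CPM in KO, HxD, V and WT. Of 7 endothelial genes it was 207 to 306, 176 to 292.5, 147 to 180.4 and 192.5 to 241 CPM in the same order. The endothelial sum was highest in KO 3 and mostly Pecam1 (119 to 273 CPM). Cldn5 (2.08 to 30.1 CPM) and Egfl7 (2.59 to 23.8 CPM) also had counts in all libraries. Cdh5 and Tek were at 0 in 3 libraries each, Kdr in 7 and Emcn in all. Of the Leydig genes, Insl3 and Hsd3b1 were at 0 in 10 and 9 of the 12 libraries. The 5 granulosa genes summed to 3.28 to 15.7 CPM, and the 8 macrophage and 8 erythroid genes reached at most 28.9 CPM (V 2) and 17.8 CPM (KO 3). EdgeR called 0 of the 35 tested genes of these 7 lists in each mutant. At an unadjusted p under 0.05 there were 1 higher and 0 lower in KO, 1 and 3 in HxD, and 4 and 2 in V. In V 3 of the higher genes were Sertoli genes (Sox9, Cldn11 and Nr5a1). Of all tested genes, 8.3%, 8.24% and 6.05% had such a p in KO, HxD and V. Among these 35 genes, DESeq2 called Cldn11 higher in each and Fst lower in HxD, beside 1.63%, 1.35% and 0.571% of all tested genes.

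The genes span 496 kb in the GENCODE M21 annotation (GRCm38), with Cd81 and Tssc4 at one end and Nap1l4 at the other. Kcnq1ot1 is at chr7:143203458-143296549 on the minus strand, as a single exon of 93.1 kb inside the 320.7 kb of Kcnq1 (chr7:143106362-143427042, plus strand). Cdkn1c (chr7:143458339-143461050, minus strand) starts 164.5 kb from the Kcnq1ot1 start, Slc22a18 (chr7:143473736-143499334, plus strand) 177.2 kb and Phlda2 (chr7:143501545-143503150, minus strand) 206.6 kb. Nap1l4 lies at chr7:143513579-143549106 on the minus strand, and on the side before Kcnq1 lie Cd81 (chr7:143052739-143067934) and Tssc4 (chr7:143069249-143071093), both on the plus strand. The coordinates are those of the annotation, and the deposited counts carry none.

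Divided by exon length, Nap1l4 was the highest gene of the cluster in all 4 genotypes, with a mean over the 12 libraries of 104.9 CPM per kb. Tssc4 and Cdkn1c followed with 23.5 and 23.4 CPM per kb, ahead of Cd81 with 6.88. Slc22a18 and Phlda2 had 1.21 and 1.11 CPM per kb, and Kcnq1ot1 0.154, as its count was divided by an exon of 93.1 kb. The counts hold no read positions, and RefSeq gives Kcnq1ot1 a span of 83.4 kb. Its place in the order therefore rests on the length used, and even coverage of the exon was not tested. Kcnq1 had 0.00789, from a single library. The ranges over libraries of Tssc4 (12.6 to 40.3 CPM per kb) and Cdkn1c (12.6 to 41.0) overlapped almost fully, and so did those of Slc22a18 (0.0 to 8.06) and Phlda2 (0.0 to 4.15), so these neighbours in the order were not separated. Without the length, Nap1l4 averaged more CPM than 96.4% of the 14702 genes tested, Cdkn1c than 66.0%, Cd81 than 49.5%, Kcnq1ot1 than 44.4% and Phlda2 than 15.4%.

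**Figure D1:**
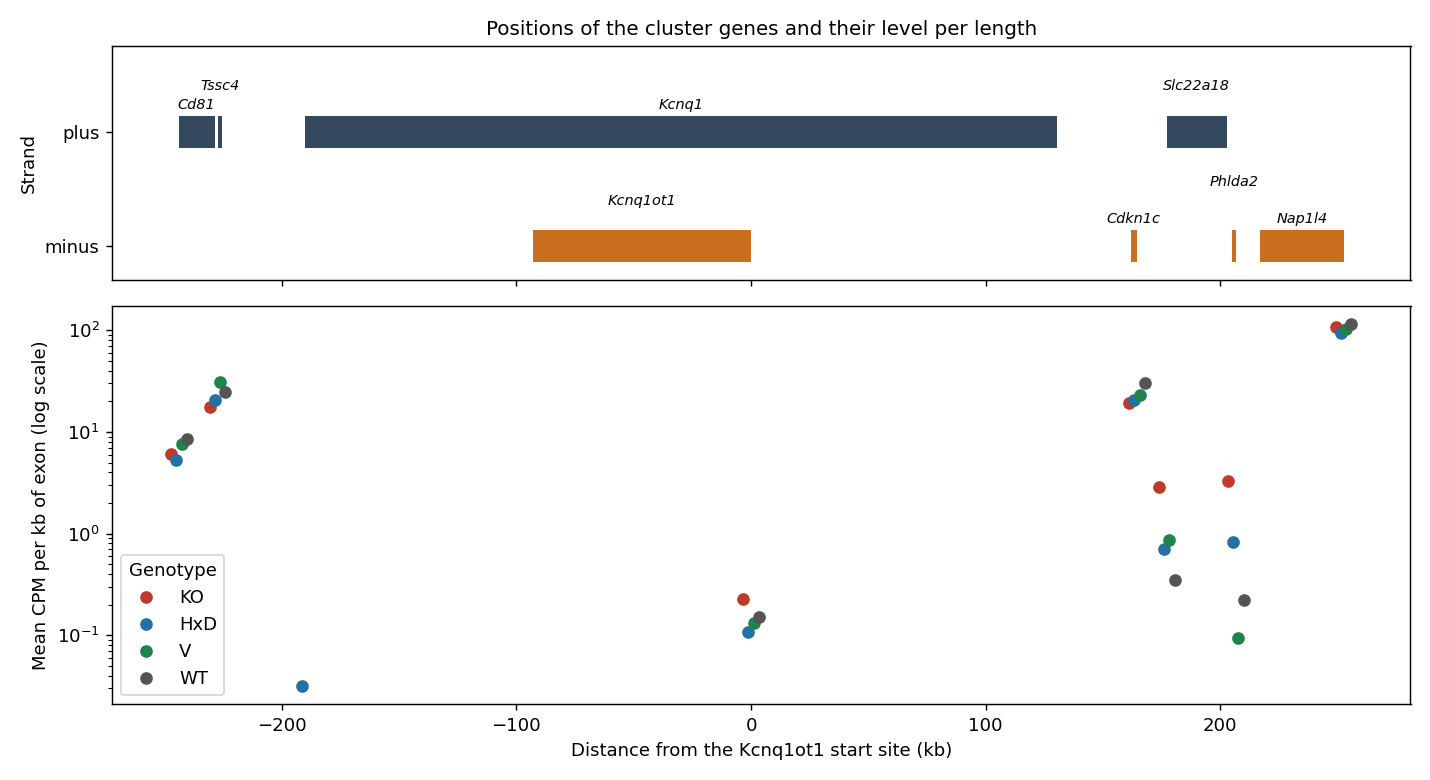
Upper panel, spans of the 8 genes by strand against the distance from the Kcnq1ot1 start site in kb. Lower panel, mean CPM per kb of exon in each genotype (n = 3) on a log axis, drawn at each gene's start site with small offsets between genotypes. Nap1l4 lies highest at the right end, while Kcnq1ot1 lies between 0.107 and 0.226 CPM per kb, and means of 0 (Kcnq1 in KO, V and WT) are not drawn.

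Kcnq1ot1 was transcribed in every library. It had 18.2, 18.4 and 26.6 CPM in KO, 9.23, 15.02 and 5.56 CPM in HxD, 24.4, 7.06 and 5.73 CPM in V, and 8.47, 26.7 and 6.62 CPM in WT, where replicates are given in the order 1 to 3. The KO libraries lay close together and high, while V and WT each held 1 library above 24 CPM and a pair below 9. The means were 21.1 ± 4.77 CPM in KO, 9.94 ± 4.77 in HxD, 12.4 ± 10.4 in V and 13.9 ± 11.1 in WT (SD, n = 3 each). Relative to WT, the log2 fold change was 0.60 in KO (SE 0.70, 95% interval -0.83 to 2.02, edgeR adjusted p = 0.974), -0.49 in HxD (interval -1.91 to 0.94, adjusted p = 0.964) and -0.17 in V (interval -1.59 to 1.25, adjusted p = 1). None passed the test, and the intervals reach a 4.05-fold higher level in KO and levels of 0.266-fold in HxD and 0.333-fold in V. Single libraries decided the size: without WT 2 the log2 fold change was 1.48 in KO, 0.40 in HxD and 0.72 in V. Without WT 3, WT 1 or KO 3 that in KO was 0.26, 0.34 or 0.39, and without KO 1 or KO 2 it was 0.69 or 0.68. Without V 2 or V 3 that in V was 0.11 or 0.17. In bulk samples, fewer cells that make an RNA and less RNA per cell cannot be told apart.

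All 3 HxD libraries lay below all 3 KO libraries for Kcnq1ot1. The log2 fold change of HxD over KO was -1.08 (SE 0.70, edgeR adjusted p = 0.913). Over all tested genes, 5.64% had HxD libraries entirely below KO libraries. Between V and KO the log2 fold change was -0.76 (SE 0.70, edgeR adjusted p = 1), with overlapping libraries.

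Kcnq1, the host gene, encodes a voltage-gated potassium channel best known from heart and inner ear. It had 6 counts in HxD 3, or 0.388 CPM, and 0 counts in the other 11 libraries, so it did not reach the filter for testing and no fold change is given. The Kcnq1ot1 exon overlaps 121 bases of 1 Kcnq1 exon block on the opposite strand, 2.96% of the exon bases of Kcnq1. The strand setting of the counting is not given in the sources used here, so reads from the overlap, or from unspliced Kcnq1 RNA, cannot be told from Kcnq1ot1, while the other exons of Kcnq1 had next to no reads.

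**Figure D2:**
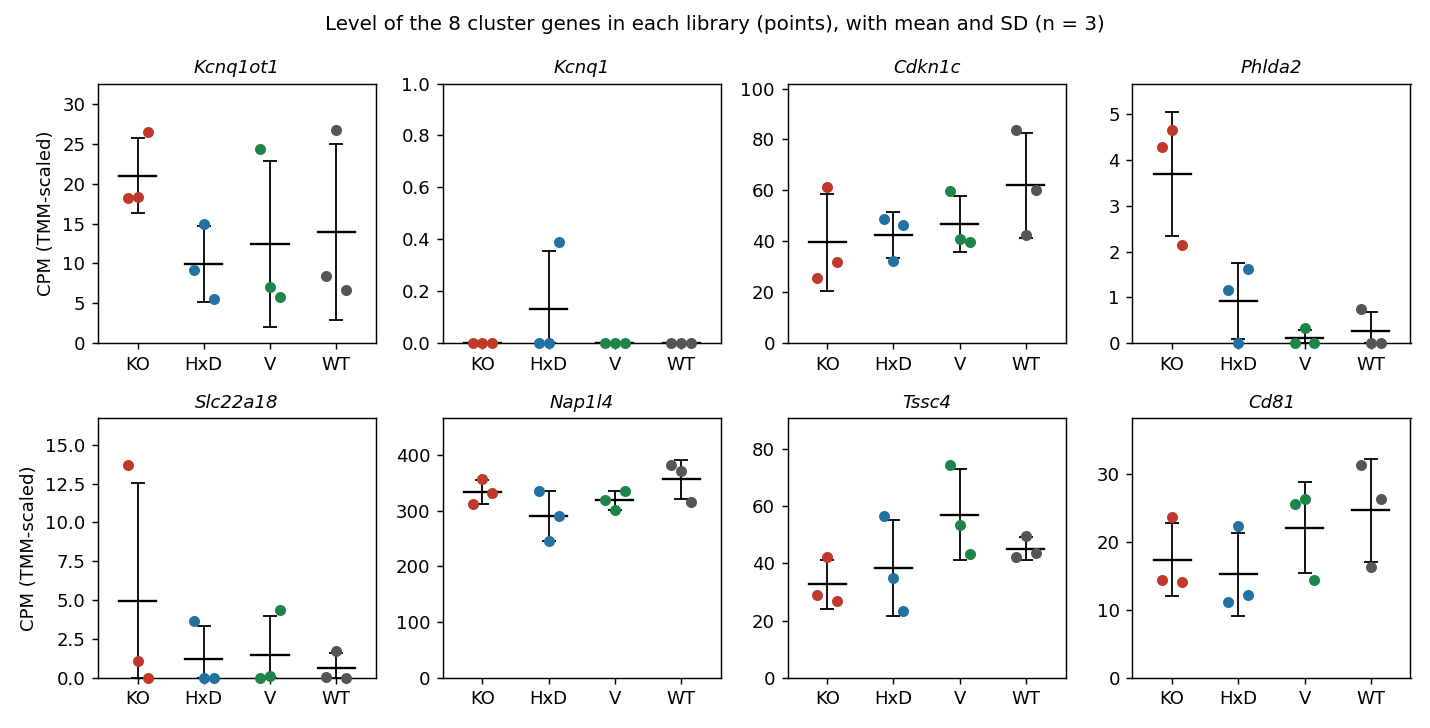
CPM of each of the 8 genes in the 12 libraries, with a panel and a linear axis from 0 for each gene. Points are libraries, long bars are genotype means and error bars are SD (n = 3), cut off at 0. Phlda2 is above 2 CPM in the 3 KO libraries and below it in the other 9, while Nap1l4 stays between 245 and 382 CPM.

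Cdkn1c, which encodes the cyclin-dependent kinase inhibitor p57Kip2 and restrains growth in the embryo, was expressed in all libraries. It had 25.7, 61.1 and 31.8 CPM in KO, 48.7, 32.1 and 46.5 CPM in HxD, 59.6, 41.0 and 39.6 CPM in V, and 83.6, 42.3 and 60.1 CPM in WT. Each mutant had a lower mean than WT, but the lowest WT library lay within the range of each mutant, so the groups overlapped. The means were 39.5 ± 18.96 CPM in KO, 42.4 ± 8.99 in HxD, 46.7 ± 11.1 in V and 62.0 ± 20.7 in WT (SD, n = 3 each). The log2 fold change relative to WT was -0.65 in KO (SE 0.33, 95% interval -1.33 to 0.03, unadjusted p = 0.0605, edgeR adjusted p = 0.614), -0.55 in HxD (SE 0.33, edgeR adjusted p = 0.637) and -0.41 in V (SE 0.33, edgeR adjusted p = 0.961). The mutants share the WT libraries, so their common sign is no separate evidence, and between mutants the log2 fold changes were 0.10 to 0.24, with edgeR adjusted p = 1 for each.

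The germ cell marker sum was also lower in the mutants, as given above, and its part in the Cdkn1c values was not tested, nor was that of the somatic marker sums. Single libraries moved the Cdkn1c values. The log2 fold change in KO was -0.37 without WT 1, -0.42 without KO 1 and -1.11 without KO 2. That in HxD was -0.27 without WT 1, and that in V was -0.13 without WT 1 and -0.62 without WT 2.

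Phlda2, which encodes a small protein with a pleckstrin homology domain that limits growth of the placenta, was a rare transcript. It had 4.28, 4.65 and 2.14 CPM in KO (97, 99 and 56 counts), against 1.16, 0 and 1.62 CPM in HxD, 0, 0.317 and 0 CPM in V, and 0.752, 0 and 0 CPM in WT. Every KO library was above every library of the other genotypes, and 5 of the other 9 libraries had no count. The summed counts were 252 in KO, 59 in HxD, 7 in V and 15 in WT. The fitted log2 fold change of KO over WT was 3.85, but with an SE of 3.11 and a 95% interval from -2.50 to 10.2, and it did not pass the test (edgeR adjusted p = 0.846). Over all tested genes, 8.13% had KO libraries entirely above WT libraries. On log2(CPM + 1) the difference was 1.91, and the exact permutation test gave p = 0.1, two-sided, the smallest that 3 against 3 libraries allow. Groups without overlap always give this value, as Tssc4 did in KO against WT, so the test adds nothing to the lack of overlap.

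Against the other mutants, Phlda2 in KO was again without overlap. Of all tested genes, 5.64% had HxD libraries and 5.19% had V libraries entirely below KO libraries. V over KO gave a log2 fold change of -5.03 (SE 3.29, edgeR adjusted p = 1) and HxD over KO one of -1.99 (SE 2.88, edgeR adjusted p = 1). Without WT 1, the 1 WT library with counts, the fitted value of KO over WT was 9.34 (SE 4.77, edgeR adjusted p = 0.787), which depends on how 0 counts are handled and is no measure of size. In KO 1, KO 2 and KO 3 the interstitial sums were 24.7, 30.8 and 5.69 CPM, the Sertoli sums 23.9, 63.6 and 19.01 CPM and the endothelial sums 207, 220 and 306 CPM, and their part in the Phlda2 values was not tested.

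Slc22a18, which encodes a membrane transporter of the organic cation carrier group, was uneven between libraries. It had 13.7, 1.08 and 0 CPM in KO, against 3.62, 0 and 0 CPM in HxD, 0, 0.0905 and 4.33 CPM in V, and 0.0501, 1.73 and 0 CPM in WT. Each genotype held 1 library that carried most of its counts, and 5 of the 12 libraries had none. The highest library, KO 1, had 310 counts, while the same gene had 0 counts in KO 3. The log2 fold change was 3.04 in KO (SE 2.83, edgeR adjusted p = 0.914), 1.02 in HxD (SE 2.64, edgeR adjusted p = 1) and 1.3 in V (SE 2.66, edgeR adjusted p = 1), and each changed sign when a single library was left out. Without KO 1 the KO value was -0.14. Counts of 0 in some libraries were common: 35.2% of tested genes had at least 1 library at 0, and 2 of the 7 tested cluster genes did.

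Nap1l4 encodes a histone chaperone of the nucleosome assembly protein family, and was the steadiest gene of the cluster. It had 312, 357 and 332 CPM in KO, 336, 245 and 290 CPM in HxD, 319, 302 and 335 CPM in V, and 382, 371 and 315 CPM in WT. The libraries of all genotypes overlapped, and the coefficient of variation over the 12 libraries was 11.4%, against 34.0% for Cdkn1c and 58.0% for Kcnq1ot1. The log2 fold change was -0.09 in KO (95% interval -0.42 to 0.23), -0.29 in HxD (-0.62 to 0.03) and -0.16 in V (-0.48 to 0.16), with edgeR adjusted p from 0.614 to 1. For this gene the intervals exclude a change of 2-fold in either direction in each mutant.

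Tssc4, described in human cells as a factor in the assembly of the splicing machinery, had 28.8, 42.3 and 26.8 CPM in KO, 56.5, 35.0 and 23.3 CPM in HxD, 74.4, 53.4 and 43.2 CPM in V, and 42.4, 49.7 and 43.6 CPM in WT. The KO libraries all lay below the WT libraries, with KO 2 and WT 1 nearly level, and below the V libraries. KO over WT gave a log2 fold change of -0.47 (SE 0.33, edgeR adjusted p = 0.773), in a comparison where 8.15% of tested genes had KO libraries entirely below WT libraries. V over KO gave 0.81 (SE 0.33, 95% interval 0.12 to 1.49), which had an unadjusted p of 0.0222 but did not pass over all genes (edgeR adjusted p = 1), where 5.15% of genes had V libraries entirely above KO libraries. HxD and V relative to WT gave -0.24 and 0.34 (SE 0.33 each, edgeR adjusted p = 0.964 and 1).

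Cd81, a tetraspanin of the cell surface, had 14.4, 23.6 and 14.1 CPM in KO, 11.2, 22.3 and 12.2 CPM in HxD, 25.5, 26.3 and 14.4 CPM in V, and 31.3, 16.3 and 26.3 CPM in WT. The groups overlapped in every comparison. The log2 fold change was -0.50 in KO (SE 0.49, edgeR adjusted p = 0.929), -0.69 in HxD (SE 0.50, edgeR adjusted p = 0.724) and -0.15 in V (SE 0.49, edgeR adjusted p = 1).

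Over the cluster, 0 of the 7 tested genes were called in KO, where edgeR called 0.218% of all tested genes, 0 in HxD (0.034% of all) and 0 in V (0.0% of all). At an unadjusted p under 0.05 the count was also 0 in each, against 8.3%, 8.24% and 6.05% of all tested genes, and DESeq2 called 0 in each, against 1.63%, 1.35% and 0.571% of all. In KO 4 of the 7 had negative log2 fold changes and in HxD and V 5 of 7, where 49.5%, 51.6% and 48.9% of all tested genes were negative. The median log2 fold change of the 7 was -0.09 in KO, -0.29 in HxD and -0.16 in V, beside medians over all tested genes of 0.00, -0.02 and 0.01. Between mutants edgeR called 0 of 7 in HxD over KO (0.0068% of all), V over KO (0.0204%) and V over HxD (0.0%), with 0, 1 and 0 at an unadjusted p under 0.05 (4.67%, 4.1% and 5.07% of all) and 0 called by DESeq2 (0.592%, 0.415% and 0.626% of all). A test of any difference among the 4 genotypes called 0 of the 7 in edgeR (0.0748% of all; 0 with an unadjusted p under 0.05, against 6.28% of all), with the smallest unadjusted p at 0.112 for Tssc4. Libraries without overlap were found for 2 of the 7 in KO against WT (Phlda2 higher, Tssc4 lower), against 8.13% higher and 8.15% lower of all tested genes. For HxD and V against WT there were 0, where 7.22% of all tested genes were lower and 5.26% higher in HxD without overlap and 6.06% lower and 5.75% higher in V. In HxD against KO 2 of 7 were lower (Kcnq1ot1, Phlda2) and 0 higher, against 5.64% and 3.69% of all, and 5 of 7 had negative values, against 51.5%. In V against KO 1 was lower (Phlda2) and 1 higher (Tssc4), against 5.19% and 5.15% of all, and 4 of 7 were negative, against 49.2%. In V against HxD 0 lay apart, against 3.2% lower and 4.79% higher of all, and 1 of 7 was negative, against 47.2%. These comparisons share libraries with each other. A p above the threshold does not show that the genotypes have equal levels, and the intervals give the sizes that remain possible.

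**Figure D3:**
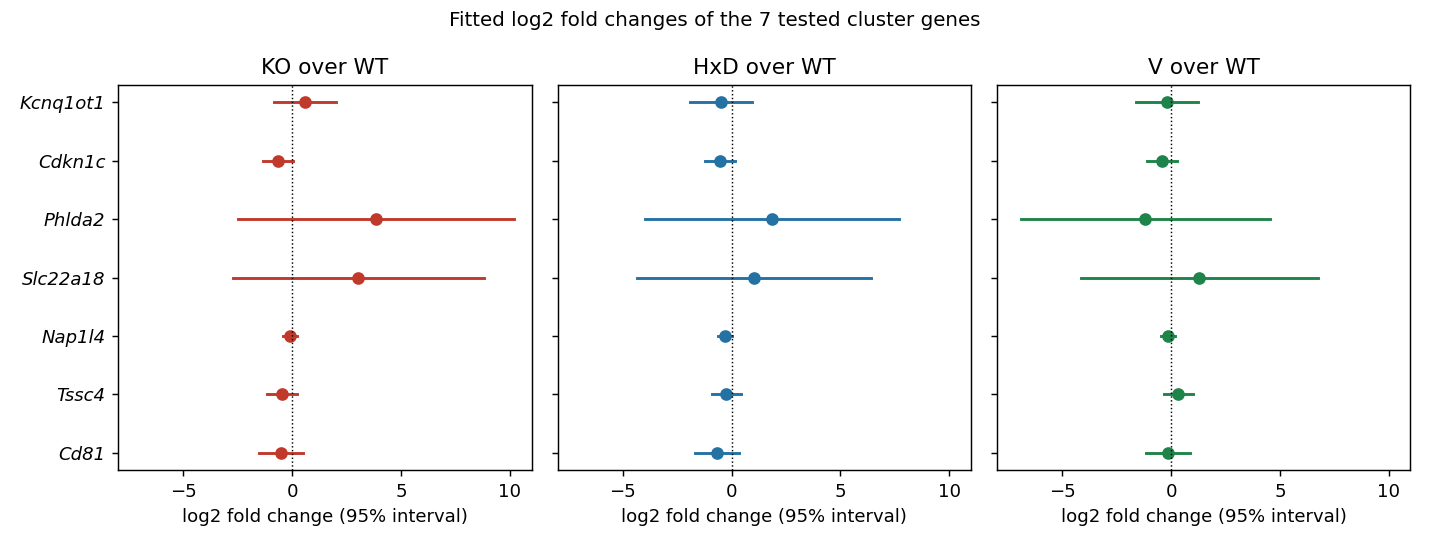
Log2 fold changes of the 7 tested genes in KO, HxD and V over WT (points) with 95% intervals from the edgeR fit (lines), on a shared axis, and a dotted line at 0. Every interval includes 0, from Nap1l4, 0.649 wide in KO, to Phlda2, 12.7 wide in KO.

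Kcnq1ot1 is known to act on its neighbours in cis, so its level was set against the 7 coding genes across the 12 libraries on log2(CPM + 1). Against Cdkn1c, Pearson's r was -0.27 and Spearman's rho -0.15 (permutation p = 0.402 and 0.636), and against Phlda2 they were 0.22 and 0.12 (permutation p = 0.491 and 0.708). The other 5 values of r ran from -0.39 for Kcnq1, which rests on its 1 library with counts, to 0.16 for Nap1l4, and every p adjusted over the 7 relations was at least 0.970 for r and 0.928 for rho. With the 2 libraries farthest from the Kcnq1ot1 median left out (KO 3 and WT 2), r was -0.12 for Cdkn1c and 0.31 for Phlda2. As deviations from genotype means, r was -0.18 for Cdkn1c, -0.52 for Phlda2 and 0.47 for Tssc4, with adjusted p of at least 0.583 by permutation within genotypes. No relation between the RNA and its neighbours was detectable with these libraries.

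**Figure D4:**
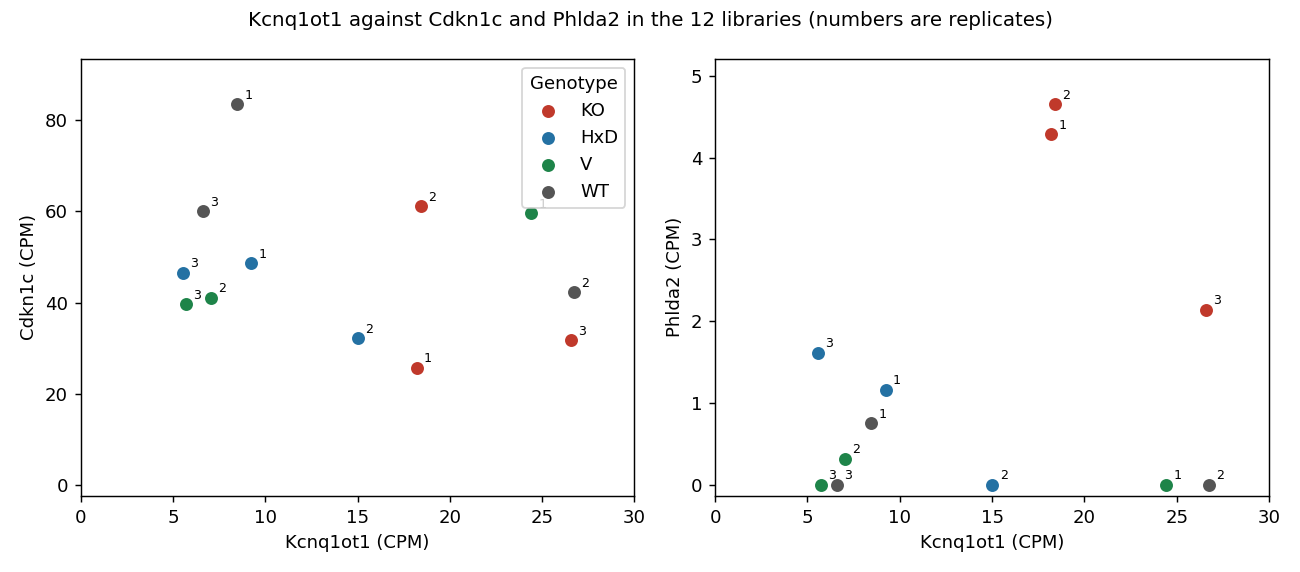
CPM of Cdkn1c (left) and Phlda2 (right) against CPM of Kcnq1ot1 in the 12 libraries, coloured by genotype, with the replicate number beside each point. KO libraries lie at or above 18.2 CPM of Kcnq1ot1 in both panels, and V 1 and WT 2 lie at similar levels of Kcnq1ot1 with Phlda2 at 0.

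The balance of the growth inhibitor and the silencing RNA was also taken within each library, as the log2 ratio of Cdkn1c to Kcnq1ot1 (CPM plus 1). It was 0.47, 1.68 and 0.25 in KO, 2.28, 1.05 and 2.86 in HxD, 1.25, 2.38 and 2.60 in V, and 3.16, 0.64 and 3.0 in WT. WT 2 lay among the KO libraries and apart from the other WT libraries. KO minus WT was -1.47 (means 0.80 ± 0.77 and 2.27 ± 1.41, SD, n = 3 each, exact permutation p = 0.2, two-sided). HxD minus WT was -0.21 and V minus WT -0.19 (exact permutation p = 0.8 for each, two-sided), where 3 against 3 libraries cannot give less than 0.1.

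Other genes of the region were described from a list of 31, of which 30 were in the table, 16 were tested and 10 were at 0 in all libraries. For this list and those that follow, the shares of all tested genes are 8.3%, 8.24% and 6.05% at an unadjusted p under 0.05 in KO, HxD and V, and 1.63%, 1.35% and 0.571% for DESeq2 calls. EdgeR and DESeq2 called 0 of the 16 in KO, HxD and V. At an unadjusted p under 0.05 there were 0 in KO, 1 higher in HxD (Ctsd) and 1 lower in V (Ppfia1). The median log2 fold changes were -0.07, -0.05 and 0.22. The smallest p in KO were those of Lsp1, a leukocyte protein gene with 1.37 ± 1.21 CPM in KO and no count in WT, and of Cttn, which organises actin at the cell edge and had 208 ± 25.8 CPM in KO against 177 ± 47.1 CPM in WT (0.23 on the log2 scale, SE 0.20, edgeR adjusted p = 0.879). H19, the RNA of the neighbouring imprinted domain, had 13.5 to 74.2 CPM over the 12 libraries, and Ascl2, a placental transcription factor gene, 0 to 15.5 CPM. Both were named after their values were seen.

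Factors that silence the domain or act on control regions were measured with a list of 32 genes, of which 31 were tested. In KO edgeR called Tet1 alone, lower, and 4 genes were lower at an unadjusted p under 0.05 (Uhrf1, Dnmt3a, Kdm1b and Tet1), while DESeq2 called Uhrf1, Dnmt3a and Tet1. In HxD and V edgeR called 0, with 4 and 2 lower by the unadjusted p. DESeq2 called Uhrf1 in HxD and 0 genes in V. The median log2 fold change was -0.16 for KO, -0.06 for HxD and -0.09 for V. The untested gene was Dnmt3l, a partner of the de novo methyltransferases, which was at 0 in 11 of 12 libraries.

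Cyclin-dependent kinases, cyclins, their inhibitors and the retinoblastoma genes, with which CDKN1C acts in the G1 phase, were tested as a list of 26. EdgeR called 0 in each mutant, with 0 higher and 3 lower in KO, 3 higher and 2 lower in HxD and 0 higher and 2 lower in V by the unadjusted p. DESeq2 called Rb1 lower in each. The median log2 fold change was 0.07 in KO, 0.04 in HxD and 0.20 in V. Rb1, the retinoblastoma gene that holds cells in G1, had 73.6 ± 6.06 CPM in KO, 66.5 ± 10.9 in HxD, 51.7 ± 8.59 in V and 119 ± 9.97 in WT (SD, n = 3 each). Its log2 fold changes were -0.69 in KO, -0.84 in HxD and -1.20 in V (SE 0.23 each), with edgeR adjusted p = 0.289, 0.256 and 0.171, so these did not pass. Cdk6, a kinase of the G1 phase, had 18.8 ± 2.7 CPM in KO and 36.9 ± 20.5 CPM in WT (edgeR adjusted p = 0.56).

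Among 20 relatives of the other members, 15 were tested and 0 were called by edgeR or DESeq2 in each mutant, with 0, 0 and 1 at an unadjusted p under 0.05 (Ptgfrn, lower in V) and medians of 0.20, -0.01 and 0.06 in KO, HxD and V. Ptgfrn, a partner of tetraspanins such as CD81, had 122 ± 21.4 CPM in KO and 155 ± 26.3 CPM in WT (-0.34 on the log2 scale, SE 0.20, edgeR adjusted p = 0.644). Nap1l5, an imprinted relative of Nap1l4, was rare and at 0 in 7 of the 12 libraries, among them all KO libraries. It had 2.47 ± 1.67 CPM in HxD, 0.498 ± 0.862 in V and 0.561 ± 0.971 in WT. KO over WT was -6.62 on the log2 scale (SE 3.54, edgeR adjusted p = 0.634). Of 11 genes at other loci with an imprinted long RNA, 7 were tested, and Airn, the RNA that silences the Igf2r locus, was at 0 in all libraries. EdgeR called 0 of them, with 1 higher in KO, 0 in HxD, and 1 higher and 1 lower in V at an unadjusted p under 0.05, and the medians were 0.60, 0.38 and 0.81. Gnas, an imprinted G protein gene, had 127 ± 18.4 CPM in KO, 86.8 ± 17.5 in HxD, 135 ± 4.88 in V and 76.9 ± 18.3 in WT (KO over WT 0.72 on the log2 scale, SE 0.21, edgeR adjusted p = 0.215), and was called by DESeq2 in KO and V. Trappc9 had 57.1 ± 12.5 CPM in KO and 80.2 ± 13.1 CPM in WT (edgeR adjusted p = 0.628).

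The genes with the pattern most like Kcnq1ot1 over the 12 libraries, by Pearson's r of log2(CPM + 1) among 8986 named genes averaging at least 8 CPM (Gm and Rik models left out), were Cipc (0.851), Slbp (0.850), Brd9 (0.827), Hspa8 (0.824) and Pgpep1 (0.822). For Cdkn1c they were Rbx1 (0.885), Gla (0.881), Adgrg1 (0.873), Adcy6 (0.854) and Ube2r2 (0.849). No cluster gene was among either 5. The values describe the libraries, which share their depth and genotype differences, and the highest of so many values is high by its choice.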

How the data were processed

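The authors deposited raw read counts per gene symbol for polyadenylated RNA (oligo-dT capture, NEB Ultra II kit, per the labels' protocols). STAR 2.7.10b, featureCounts 2.0.3, SAMtools 1.9, Trim Galore 0.6.7 and FastQC are named in the submitters' processing notes, which also list GRCm39 and mm10 without saying what each was used for. The sources used here give no annotation or strand setting. Columns were matched to samples by name. Of the value columns, 1 names no sample and was not used, and the sample WT 4 was not analysed here.

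Genes were kept by the filter of edgeR 4.0.16 (minimum count 10), which left 14702 and 7 of the 8 cluster genes. A gene can pass through 1 high genotype alone. Counts were scaled by TMM and tested with edgeR's quasi-likelihood F-test in 1 fit of the 12 libraries, with a term for genotype and no other. P-values are two-sided and Benjamini-Hochberg adjusted over the 14702 genes, and calls have an adjusted p under 0.05. The common biological coefficient of variation was 0.932. CPM are TMM-scaled, and SE and 95% intervals come from this fit. CPM per kb use exon lengths of GENCODE M21. Correlations used 100000 permutations, except those of deviations from genotype means, which used every permutation within genotypes.

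The 8 genes and the gene lists were chosen with earlier results of these data known. Named were all 8 genes, the called list members or otherwise the pair with the smallest p in KO (in marker lists, defining or abundant genes instead of that pair), and the 5 most alike in pattern; other named genes were chosen after their values were seen. The results of 1 list and the summed level of the Leydig list are not reported here. Alternatives were RLE scaling, DESeq2 1.42.0, no filter, a minimum count of 30, 2 genotypes only, a replicate block, 1 surrogate variable (sva 3.50.0), leaving out each library, and leaving out WT 3 and V 3 together. The fit was also run on simulated data, with a smaller common spread than these libraries and changes only in genes averaging at least 8 CPM. That run does not cover genes as rare as Phlda2 and Slc22a18.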

Additional observations from a re-analysis of the deposited data

How the results depend on the processing

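No cluster gene was called in any of the 20 alternative settings, and the smallest edgeR or DESeq2 adjusted p of a pairwise value was 0.38, or 0.28 with 1 library left out. Of 331 log2 fold changes of cluster genes, 326 kept their sign. The others were Slc22a18 with the replicate block, at -1.73 in HxD over WT and 3.83 in V over KO, and, with WT 3 and V 3 set aside, Slc22a18 at -4.14 in V over WT and -4.58 in V over HxD and Cd81 at 0.12 in V over WT. Leaving out 1 library turned 24 of 252. Kcnq1, Phlda2 and Slc22a18 had libraries with 0 counts, where levels up to 0.103 to 0.220 CPM, by library, remain possible.

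The counts over all genes moved more, and the cause was not tested. In the order KO, HxD and V over WT, then HxD over KO, V over KO, V over HxD and any difference among genotypes, DESeq2 called 239, 199, 84, 87, 61, 92 and 176 genes, and edgeR without the low-count filter 148, 67, 32, 8, 21, 5 and 162. The replicate block gave 104, 45, 8, 8, 16, 2 and 112. The sources used here do not say whether same-numbered libraries share a batch. Of 18 same-numbered pairs, 2 had deviations that correlated above 0.1 (range -0.145 to 0.121). Pairs with different numbers ran from -0.116 to 0.21. These correlations cannot show whether a batch was shared. The block called no cluster gene. The stricter filter gave 19 in KO and 3 in HxD, and fits of 2 genotypes only gave 12 in KO, 2 in HxD and 0 in V over KO. A surrogate variable gave 18, 8 and, for any difference, 18. Without WT 3 and V 3 the counts were 11 in KO, 2 in HxD, 0 in V over KO and 3 for any difference, and RLE scaling gave 19 for any difference. With 1 library left out, counts ran from 15 to 95 in KO, 1 to 47 in HxD, 0 to 10 in V, 1 to 14 in HxD over KO, 2 to 18 in V over KO, 0 to 11 in V over HxD and 21 to 95 for any difference.

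Log2 fold changes over WT also moved with 1 library left out. That of Slc22a18 ran from -0.14 to 7.34 in KO, -6.66 to 5.33 in HxD and -3.56 to 5.6 in V. That of Cdkn1c ran from -1.11 to -0.37 in KO, -0.76 to -0.27 in HxD and -0.62 to -0.13 in V. For Kcnq1ot1 it ran from 0.26 to 1.48 in KO, -0.91 to 0.40 in HxD and -1.11 to 0.72 in V. Phlda2 in V ran from -5.48 to 4.31, Cd81 in V from -0.38 to 0.0766 and Tssc4 in HxD from -0.63 to 0.0307. In HxD over KO, Cdkn1c ran from -0.13 to 0.56, Slc22a18 from -9.70 to 1.16, Tssc4 from -0.16 to 0.49 and Cd81 from -0.57 to 0.0929. In V over KO, Slc22a18 ran from -6.60 to 1.44, and in V over HxD Kcnq1ot1 from -0.64 to 0.75, Cdkn1c from -0.0764 to 0.25 and Slc22a18 from -4.58 to 7.96.

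Pearson's r with Kcnq1ot1 ran, with 1 library left out, from -0.11 to 0.24 for Slc22a18, -0.16 to 0.30 for Tssc4 and -0.18 to 0.11 for Cd81. Without KO 3 and WT 2 it was -0.0497 for Nap1l4 and 0.22 for Cd81. As deviations from genotype means it was -0.52 for Phlda2, -0.12 for Slc22a18, -0.0156 for Nap1l4 and 0.0365 for Cd81, and with a pseudocount of 0.1 it was 0.0035 for Cd81. The ratio of Cdkn1c to Kcnq1ot1 ran from -2.28 to -1.02 in KO, -1.02 to 0.30 in HxD and -1.004 to 0.25 in V, and with a pseudocount of 0.1, chosen after seeing the data, it kept its direction in each.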
